A study of Mus musculus with 12 samples.

Results

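The genes of the mitochondrial respiratory chain were followed across 12 arrays of mouse dorsal skin. Members were all genes whose symbol starts with Nduf, Uqcr or Atp5, and the genes Sdha to Sdhd, on array rows that name 1 gene only, with the row of highest mean kept for each gene. This gave 72 of the 22180 genes measured. They comprised 32 subunits of complex I (6 core and 26 accessory), 8 assembly factors of complex I, 4 subunits of complex II, 7 of complex III, 17 of ATP synthase (complex V), the related genes Ndufa4 and Ndufa4l2, and the pseudogenes Atp5c1-ps and Uqcrh-ps1. Pseudogene rows can share signal with their parent genes and are uncertain, so counts below are over the other 70 genes unless 72 is given. Another 8 symbols (Ndufb2, Ndufb4, Ndufb4b, Ndufb4c, Ndufs5-ps, Ndufs6, Ndufs6b and Uqcr10) occur only on rows that name several genes and do not count as members.

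The respiratory chain passes electrons from NADH (through complex I) and succinate (through complex II) to ubiquinone, then through complex III and cytochrome c to complex IV, which reduces oxygen. Complexes I, III and IV pump protons, and ATP synthase lets them flow back through a rotating ring of c subunits to make ATP. Nearly all cells need the chain, while muscle holds much of it and epidermal keratinocytes rely heavily on glycolysis.

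All mice were C57Bl/6, and each array read RNA from 1 pool of skin of male and female mice, with 4 mice in the WT and IL-6KO pools at 10 weeks and 5 in every other pool. The 6 groups were WT skin, IL-6KO skin (without IL-6), skin of mice that overexpress IL-17C (IL-17C+), taken from involved or from uninvolved areas, and involved or uninvolved skin of mice with the same transgene and without IL-6 (IL-17C+KO). Every group had 1 pool at 10 weeks and 1 at 14 weeks, so n = 2 throughout, and paired values below are given in that order of age. The labels call WT skin uninvolved and IL-6KO skin involved. The promoter behind the transgene, and whether involved and uninvolved pools shared mice, are not stated in the sources used here.

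Group names are those of the labels, and every direction below rests on them. Log2 intensities of the Il17c row were 4.67 and 4.96 for WT, 6.30 and 6.17 for IL-6KO, 4.74 and 4.16 for IL-17C+ uninvolved, 5.81 and 6.63 for IL-17C+ involved, 6.16 and 6.25 for IL-17C+KO uninvolved and 5.32 and 5.62 for IL-17C+KO involved pools. The IL-6KO pools, labelled as free of the transgene, were thus among the highest, and the IL-17C+ uninvolved pools among the lowest. The Il6 row read 2.92 and 2.88 for WT, 2.68 and 2.79 for IL-6KO, 3.28 and 3.02 for IL-17C+ uninvolved, 4.23 and 3.21 for IL-17C+ involved, 4.93 and 5.00 for IL-17C+KO uninvolved and 3.14 and 4.64 for IL-17C+KO involved pools. Whether either row lies in the transgene or in the disrupted part of Il6 is not stated in the sources used here, so these rows check no label by themselves. Array medians lay between 3.97 and 4.23 on the log2 scale. Of the 72 members, 65 read above the array median on every array, against 49.9% of all genes, which describes row brightness and not transcript number. The exceptions were Atp5g1, Atp5j2, Ndufaf5, Ndufaf6, Ndufs5 and the pseudogenes, whose rows are too dim to show a loss well.

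Markers of inflamed skin ran against the site labels of the IL-17C+KO pools. The mean of 8 neutrophil markers was 7.70 for the IL-17C+KO pools labelled uninvolved and 4.82 for those labelled involved, beside 7.74 for IL-17C+ involved, 4.02 for IL-17C+ uninvolved, 4.78 for IL-6KO and 4.02 for WT skin. The mean of 8 stressed epidermis markers, keratins and alarmins of activated keratinocytes, was 9.88 and 7.29 for the same IL-17C+KO pools, beside 10.16, 5.72, 7.41 and 5.33. S100a8, an alarmin on both lists, read 10.35 and 10.74 in the IL-17C+KO pools labelled uninvolved, 5.51 and 8.69 in those labelled involved, and 10.32 and 10.67 in IL-17C+ involved pools. By these markers the IL-17C+KO pools labelled uninvolved had the level of involved IL-17C+ skin at both ages, and those labelled involved lay near IL-6KO skin. The sources used here do not settle which site these pools came from. Groups keep the names of the labels below, and results on IL-17C+KO skin are also given with its 2 site labels exchanged, an alternative chosen after the data were seen.

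Promoters of the members were searched for motifs of factors known to regulate nuclear genes of the respiratory chain. RefSeq entries (GRCm38.p6) covered 59 of the 70 genes, and the 250 bases before the annotated start were searched on both strands. The palindromic core of 10 bases bound by NRF1, with 1 base free, occurred in 11 of 59 members (18.6%) and in 4.23% of 27025 genes with a promoter entry. CCGGAAG, a core of sites for ETS factors such as GABPA, occurred in 12 members (20.3%, against 7.83%), and TNAAGGTCA, a site of the oestrogen-related receptors, in 1 member, Atp5g3 (1.69%, against 1.3%). Any of the 3 motifs was present in 22 members (37.3%, against 12.5%), with Atp5h and Sdhd holding both the NRF1 and the CCGGAAG letters. Base composition was not matched between members and all genes, and a match of letters is not a measured site. For the complex I assembly factor Ndufaf4 (chr4:24897833-24898082, plus strand), the complex II flavoprotein Sdha (chr13:74350241-74350490, minus strand), Ndufa4 (chr6:11907451-11907700, minus strand) and the catalytic ATP synthase subunit Atp5b (chr10:128083057-128083306, plus strand), the 250 bases before the start are shown 5′ to 3′ as examples with and without the letters. Capitals mark the NRF1 core, present 1 time in Ndufaf4 and 3 times in Sdha, and none of the 3 motifs lies in the other two windows.
Ndufaf4: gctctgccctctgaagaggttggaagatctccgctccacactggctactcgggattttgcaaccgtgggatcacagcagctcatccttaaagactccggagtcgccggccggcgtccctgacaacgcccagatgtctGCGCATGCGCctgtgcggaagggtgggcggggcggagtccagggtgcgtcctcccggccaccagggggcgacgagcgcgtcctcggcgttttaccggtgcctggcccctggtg
Sdha: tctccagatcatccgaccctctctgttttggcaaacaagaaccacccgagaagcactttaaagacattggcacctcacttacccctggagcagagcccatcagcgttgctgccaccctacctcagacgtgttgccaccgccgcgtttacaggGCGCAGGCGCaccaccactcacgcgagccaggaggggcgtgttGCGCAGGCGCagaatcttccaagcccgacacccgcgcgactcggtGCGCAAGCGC
Ndufa4: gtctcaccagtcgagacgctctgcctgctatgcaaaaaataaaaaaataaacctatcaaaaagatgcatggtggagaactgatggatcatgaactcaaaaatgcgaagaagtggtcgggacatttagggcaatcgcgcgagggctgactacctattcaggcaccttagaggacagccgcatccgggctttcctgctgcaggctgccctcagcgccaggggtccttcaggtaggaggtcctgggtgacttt
Atp5b: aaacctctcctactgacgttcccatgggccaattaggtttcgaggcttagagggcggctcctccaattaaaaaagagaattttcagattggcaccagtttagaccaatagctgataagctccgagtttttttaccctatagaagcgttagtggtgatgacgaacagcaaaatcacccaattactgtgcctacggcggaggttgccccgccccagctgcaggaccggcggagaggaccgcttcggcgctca

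Group means of the chain genes had a median spread near that of other genes, with few wide spreads. Averaged over the 70 genes, the mean log2 intensity was 6.75 for WT, 6.75 for IL-6KO, 6.92 for IL-17C+ uninvolved, 6.78 for IL-17C+ involved, 6.84 for IL-17C+KO uninvolved and 7.05 for IL-17C+KO involved skin. The spread of a gene's 6 group means had a median of 0.51 over the members and 0.47 over all genes, and 0.57 over the 5667 genes whose mean lay between the members' quartiles. Only 3 of the 70 members spanned more than 1 log2 unit: Ndufa4l2 (1.10), Ndufb9 (1.07) and Ndufa3 (1.02). Such a span was exceeded by 9.02% of all genes and by 15% of the genes between the members' quartiles. Atp5b (0.23), the complex I assembly factor Ndufaf2 (0.23) and the accessory subunit Ndufa8 (0.24) spanned the least.

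In limma's fit of group and age over all 12 arrays, with Benjamini-Hochberg adjustment over 22180 genes, 0 of 72 members passed an adjusted p of 0.05 in any of the 11 comparisons. Genes that pass this threshold are termed called. Over all genes the share that passed was 1.8% for IL-17C+ involved against WT, 1.61% for IL-17C+ involved against uninvolved, 0.0541% for IL-17C+ uninvolved against WT and 0.455% for IL-6KO against WT. It was 0.171% for IL-17C+KO involved against IL-6KO, 0.505% for IL-17C+KO involved against uninvolved and 0.397% for IL-17C+KO uninvolved against IL-6KO. It was 0.649% between the involved groups, 0.712% between the uninvolved groups, 2.58% for the site by IL-6 interaction and 0% for age. In the same order 3, 4, 2, 4, 3, 1, 2, 7, 0, 6 and 1 of the 70 genes had an unadjusted p under 0.05, and the smallest adjusted p of any member was 0.172. With such shares of all genes called, 0 calls among 72 members is no result about the chain. Pools are not single mice: the p-values rest on the variation among these 12 pools, part of which may be technical, and the error also holds any effect of age that differs between groups.

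**Figure D1:**
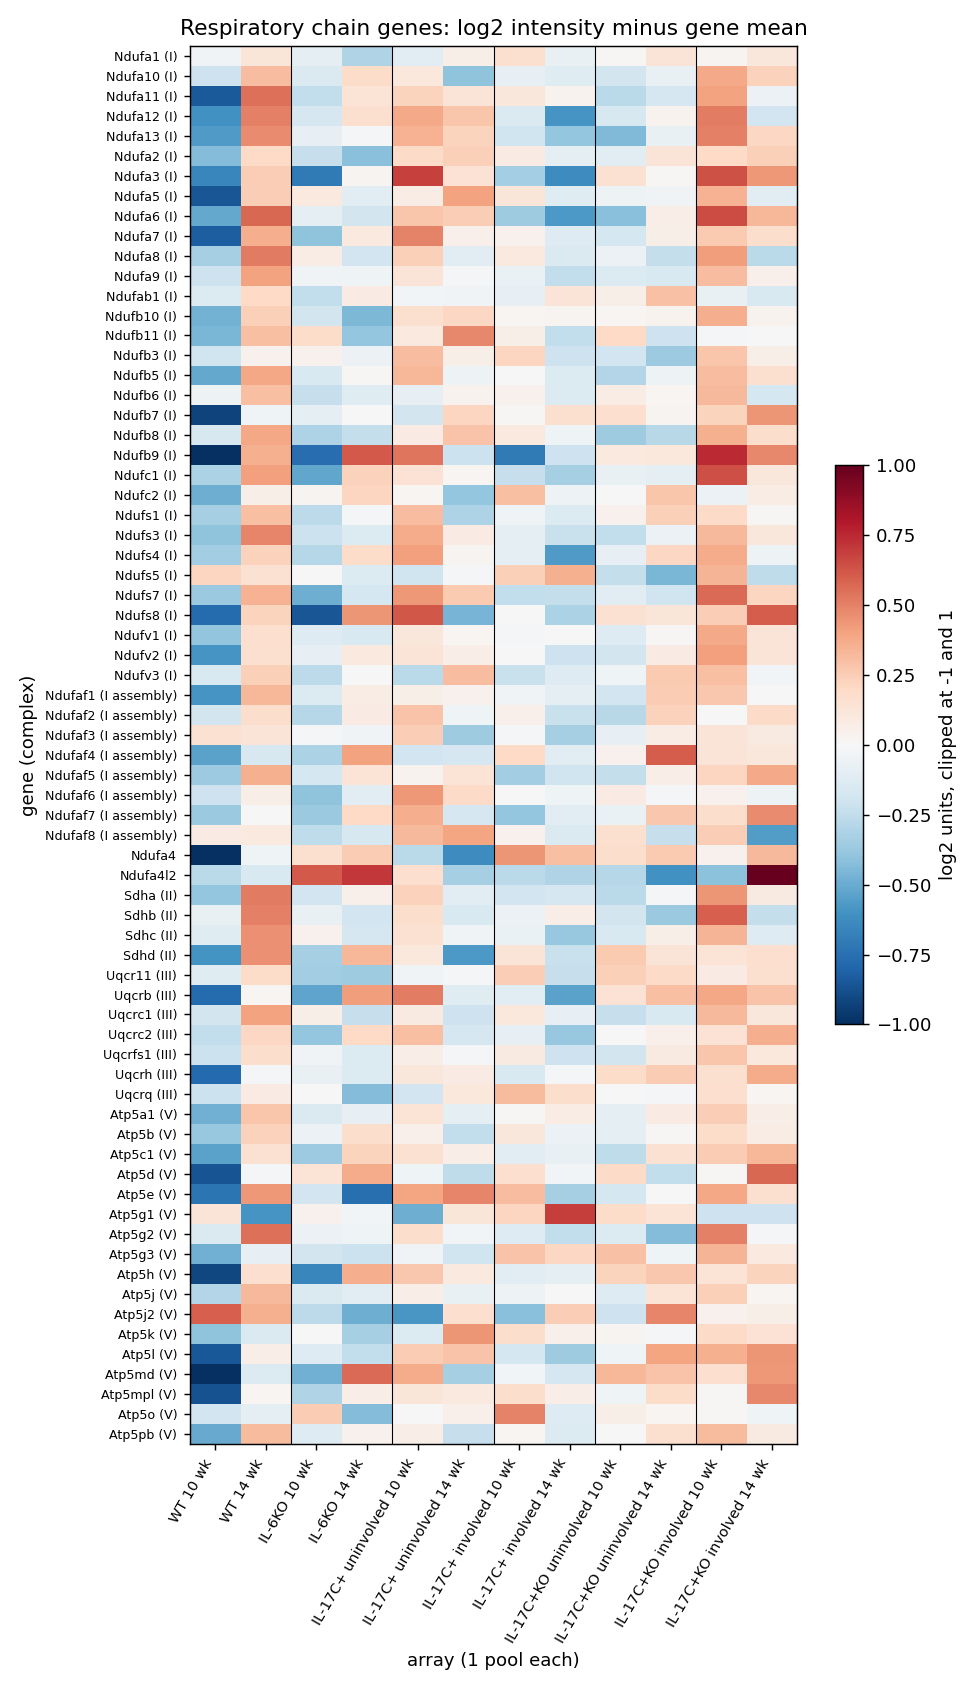
Each row is 1 of the 70 respiratory chain genes with its complex, each column 1 array, and colour gives the log2 intensity minus the gene's mean over the 12 arrays, clipped at -1 and 1. The 10-week WT column is mostly blue (lowest array for 38 genes) and the IL-17C+KO involved columns mostly red (65 and 53 of 70 genes above their own mean).

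The array that differed most for these genes was a control. The 10-week WT pool had the lowest value of all 12 arrays for 38 of 70 genes (54.3%, against 18.1% of all genes), and the 14-week WT pool had the highest for 16 (22.9%, against 8.86%). The 10-week WT array was extreme in both directions, with the highest value for 17% of all genes and for 1.43% of the members. It also had the highest array median (4.23). From 10 to 14 weeks 66 of 70 genes were higher in WT, with a median difference of 0.66, while over all genes this median was 0.03 and 51.9% were higher. In the other groups the members' median difference with age was 0.10 for IL-6KO, -0.15 for IL-17C+ uninvolved, -0.14 for IL-17C+ involved, 0.11 for IL-17C+KO uninvolved and -0.16 for IL-17C+KO involved skin. For 50 of the 70 genes the gap between the WT pools exceeded the range of all 6 group means, as it did for 37.2% of all genes.

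The WT gap spanned every complex. Uqcrb, the subunit of complex III that helps bind ubiquinone, read 9.11 and 9.90 in WT. Sdha, which oxidises succinate, read 8.73 and 9.64. Atp5md, a small membrane subunit of ATP synthase, read 8.16 and 9.03, and the catalytic subunit Atp5b 9.99 and 10.59. The dim rows Atp5g1 (4.53 and 3.82) and Atp5j2 (4.61 and 4.37) ran the other way. No second WT pool of either age was measured, so age and pool cannot be told apart. The skeletal muscle list described further on read 9.22 and 9.84 in these pools. The mean of adipocyte (fat cell) markers was 6.35 and 7.78, the lowest and the highest of any array. Endothelial (5.601 and 6.325) and keratinocyte markers (8.99 and 9.24) were also lowest in the 10-week WT pool. Fibroblast (11.12 and 10.88), neutrophil (4.29 and 3.76) and stressed epidermis markers (5.72 and 4.95) ran the other way. The part of these cells in the WT gap was not tested.

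**Figure D2:**
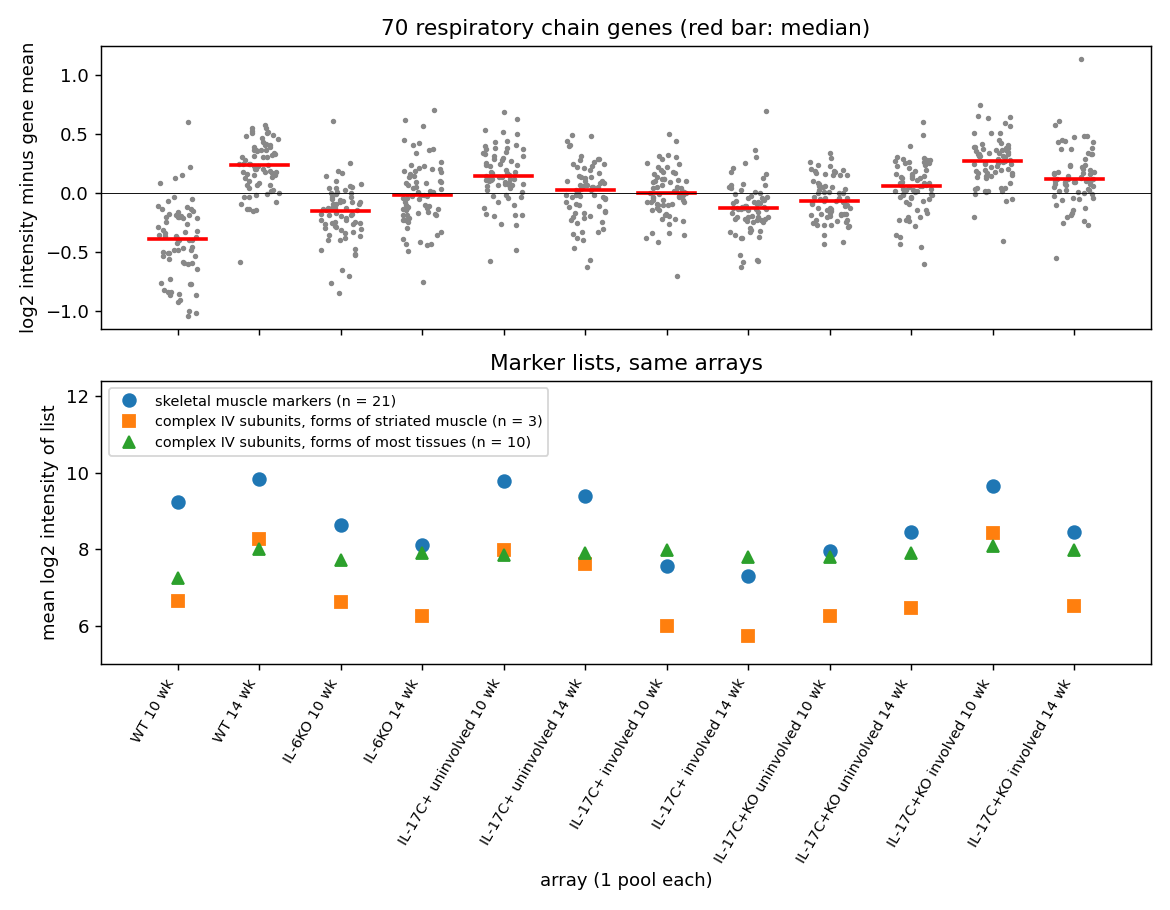
The upper panel shows the log2 intensity of each of the 70 genes minus its mean on the 12 arrays (grey points) with the median of each array (red bar), which runs from -0.39 in WT at 10 weeks to 0.26 in IL-17C+KO involved skin at 10 weeks. The lower panel gives the mean log2 intensity of 3 lists on the same arrays, with skeletal muscle markers lowest in the IL-17C+ involved pools (7.56 and 7.29).

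Comparisons against WT therefore had opposite signs at the 2 ages. In involved IL-17C+ skin against WT, 64 of 70 genes were higher at 10 weeks (median 0.38) and 61 were lower at 14 weeks (median -0.41). In uninvolved IL-17C+ skin against WT the medians were 0.57 and -0.21, and in IL-6KO against WT 0.23 and -0.26. These 3 comparisons share the same 2 WT arrays. Pooled over age, the members' medians were -0.00, 0.17 and -0.02, against 0.01, 0.01 and -0.01 over all genes. Without the 10-week WT array they became -0.31, -0.16 and -0.33, and without the 14-week WT array 0.32, 0.46 and 0.32 (medians with an array left out are over all 72 members).

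Whether the transgene with IL-6 present moved single chain genes was asked first against WT. The genes with the smallest p were Ndufa4, Atp5g1, Atp5g3, the accessory subunit Ndufb7 and the small ATP synthase subunit Atp5mpl, all with both involved pools above both WT pools. Among the 70 genes, 9 (12.9%) lay above WT and 4 (5.71%) below it without overlap, where 20.4% and 16.4% of all genes did. By complex, 14 of 17 ATP synthase genes were higher (median 0.15), but 20 of 32 complex I subunits were lower (median -0.04), as were 3 of 4 complex II subunits (median -0.23). The skeletal muscle markers beside them had a median of -2.25, with 16 of 21 called lower.

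Ndufa4, long listed with complex I and now assigned to complex IV, had the smallest p of the members in this comparison. Its log2 levels were 8.40 and 9.38 for WT, 9.59 and 9.68 for IL-6KO, 9.16 and 8.80 for IL-17C+ uninvolved, 9.86 and 9.73 for IL-17C+ involved, 9.60 and 9.69 for IL-17C+KO uninvolved and 9.46 and 9.75 for IL-17C+KO involved pools. The 4 pools of WT and IL-17C+ uninvolved skin were the lowest, below all 8 others. IL-17C+ involved skin exceeded WT by 0.90 ± 0.31 (SE, limma, Benjamini-Hochberg adjusted p = 0.225) and uninvolved skin of the same genotype by 0.82 ± 0.31 (adjusted p = 0.29). IL-6KO skin exceeded WT by 0.74 ± 0.31 (adjusted p = 0.546), and IL-17C+KO uninvolved exceeded IL-17C+ uninvolved skin by 0.67 ± 0.31 (adjusted p = 0.649). None of these passed. The order of the group means was IL-17C+ involved (9.80), IL-17C+KO uninvolved (9.64), IL-6KO (9.63), IL-17C+KO involved (9.61), IL-17C+ uninvolved (8.98) and WT (8.89), and the middle 3 lay closer together than the 2 pools of IL-17C+KO involved skin.

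Ndufa4l2, its relative known to be induced by hypoxia, had a different pattern. It read 6.12 and 6.24 for WT, 6.997 and 7.09 for IL-6KO, 6.55 and 6.06 for IL-17C+ uninvolved, 6.12 and 6.08 for IL-17C+ involved, 6.11 and 5.78 for IL-17C+KO uninvolved and 5.98 and 7.52 for IL-17C+KO involved pools. Both IL-6KO pools and the 14-week IL-17C+KO involved pool stood above the other 9. The difference of IL-17C+KO uninvolved from IL-6KO skin was -1.10 ± 0.39 (limma, Benjamini-Hochberg adjusted p = 0.461), and that of IL-6KO from WT 0.87 ± 0.39 (adjusted p = 0.57). With only the 4 arrays of IL-17C+KO uninvolved and IL-6KO skin fitted, the first of these passed (adjusted p = 0.028). That fit has fewer residual degrees of freedom than the main one and leans more on the prior. The 0.81 ± 0.39 by which involved exceeded uninvolved IL-17C+KO skin (adjusted p = 0.855) was -0.03 without the 14-week involved pool.

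The c subunits of the ATP synthase ring come from 3 genes, Atp5g1, Atp5g2 and Atp5g3, whose mature proteins are identical and whose import sequences differ. Atp5g1 read 4.53 and 3.82 for WT, 4.45 and 4.38 for IL-6KO, 3.92 and 4.53 for IL-17C+ uninvolved, 4.62 and 5.10 for IL-17C+ involved, 4.59 and 4.54 for IL-17C+KO uninvolved and 4.20 and 4.20 for IL-17C+KO involved pools. Its 2 highest pools were those of IL-17C+ involved skin, on a row near the array median. Atp5g3 read 6.44 and 6.83 for WT, 6.73 and 6.70 for IL-6KO, 6.88 and 6.72 for IL-17C+ uninvolved, 7.20 and 7.13 for IL-17C+ involved, 7.21 and 6.88 for IL-17C+KO uninvolved and 7.26 and 7.02 for IL-17C+KO involved pools. Under the site labels as given, all pools of involved transgenic skin lay above all WT, IL-6KO and IL-17C+ uninvolved pools. The 10-week IL-17C+KO uninvolved pool (7.213) lay above all of these involved pools but the 10-week IL-17C+KO one. With the labels exchanged the order fails, since the 14-week IL-17C+KO uninvolved pool (6.878) lay below the 10-week IL-17C+ uninvolved pool (6.884). Atp5g2 read 8.38 and 9.07 for WT, 8.47 and 8.48 for IL-6KO, 8.70 and 8.50 for IL-17C+ uninvolved, 8.39 and 8.28 for IL-17C+ involved, 8.39 and 8.09 for IL-17C+KO uninvolved and 9.02 and 8.51 for IL-17C+KO involved pools. It was highest in WT at 14 weeks and lowest in IL-17C+KO uninvolved skin at 14 weeks.

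Differences of the c-ring genes between IL-17C+ involved skin and WT had unlike signs and did not pass. In limma with Benjamini-Hochberg adjustment they were 0.69 ± 0.29 for Atp5g1 (adjusted p = 0.364), 0.53 ± 0.24 for Atp5g3 (adjusted p = 0.414) and -0.39 ± 0.29 for Atp5g2 (adjusted p = 0.688). Between involved IL-17C+KO and involved IL-17C+ skin the differences were -0.66 ± 0.29 for Atp5g1, -0.03 ± 0.24 for Atp5g3 and 0.43 ± 0.29 for Atp5g2 (adjusted p from 0.501 to 0.991). A second Atp5g2 row followed the first over the 12 arrays (Pearson r 0.91, a description). For the other members with a second row, r was 0.76 (Atp5d), 0.51 (Ndufa8), 0.34 (Atp5h), 0.02 (Atp5e), -0.06 (Ndufa12) and -0.40 (Ndufa11). Most of these genes thus depend on the row kept.

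**Figure D3:**
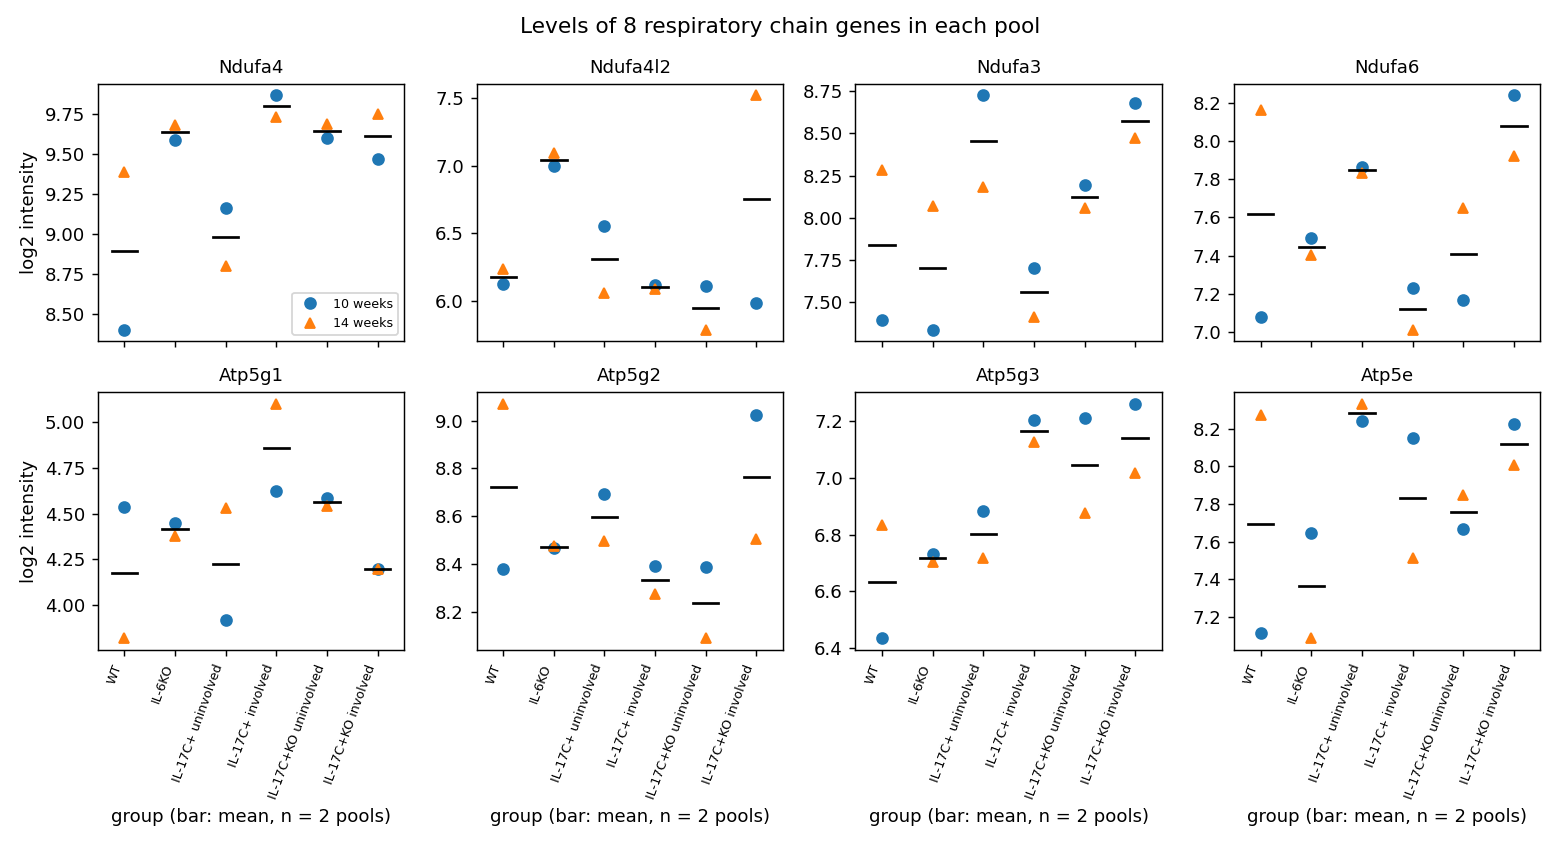
Log2 intensity of 8 genes in each of the 12 pools by group (circles 10 weeks, triangles 14 weeks, bars the mean of the 2 pools). Ndufa4 is lowest in WT and IL-17C+ uninvolved skin. Under the site labels as given, Ndufa3 and Ndufa6 are low in both IL-17C+ involved pools and high in both IL-17C+KO involved pools.

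How involved skin compared with uninvolved skin of the same genotype was asked with and without IL-6. With IL-6 present, 49 of 70 genes were lower in involved IL-17C+ skin (median -0.17, against 0.02 over all genes), and 28 (40%) lay below the uninvolved pools without overlap, as 23.4% of all genes did, while 7 (10%, against 24.5%) lay above. All 6 core subunits of complex I and 7 of its 8 assembly factors were lower, whereas ATP synthase genes were split 9 to 8. Without IL-6, 55 of 70 genes were higher in involved skin (median 0.19, against 0.02), and 31 (44.3%) lay above without overlap, as 21.6% of all genes did, while 5 (7.14%, against 17.6%) lay below. This direction rests on the labels of the IL-17C+KO pools: exchanged, 55 of 70 genes were lower in involved skin (median -0.19), the sign seen with IL-6 present. As labelled, 4 of 8 neutrophil markers and 1 of 8 stressed epidermis markers were called lower in involved IL-17C+KO skin, with no member of either list higher. The first median was 0.02 without the 10-week IL-17C+ uninvolved array, and the second 0.08 without the 10-week IL-17C+KO involved array.

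The interaction, the involved-minus-uninvolved difference without IL-6 minus that with IL-6, had a median of 0.34 over the members and 0.00 over all genes, with 57 of 70 genes positive and none called. Without the 10-week IL-17C+ uninvolved array it was 0.195, and without the 10-week IL-17C+KO involved array 0.225. With the IL-17C+KO site labels exchanged it was -0.04, with 29 genes positive and 41 negative, and the genes called among all 22180 went from 573 to 1, with 1123 at an unadjusted p under 0.05. At both ages 21 genes (30%, against 11.5% of all genes) were lower in involved IL-17C+ and higher in involved IL-17C+KO skin than in their uninvolved counterparts, and 2 (2.86%, against 9.59%) did the reverse. Only 13 of 70 genes had a 95% interval of the interaction within 2-fold in both directions (18.6%, against 44.3% of all genes), so a 2-fold interaction was not excluded for most.

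Complex I subunits had the largest of these values, all under the labels as given. Ndufa6, an accessory subunit of the matrix arm, read 7.86 and 7.83 for IL-17C+ uninvolved, 7.23 and 7.01 for IL-17C+ involved, 7.17 and 7.65 for IL-17C+KO uninvolved and 8.24 and 7.92 for IL-17C+KO involved pools, beside 7.08 and 8.16 for WT and 7.49 and 7.40 for IL-6KO. Involved pools were below uninvolved ones with IL-6 and above them without it, while the WT pools reached across most of this range. Its interaction was 1.40 ± 0.46 (limma, Benjamini-Hochberg adjusted p = 0.172), and with the skeletal muscle mean as a covariate -0.69 ± 0.82. With the site labels exchanged it was 0.054.

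Ndufa3, a small membrane subunit, read 8.73 and 8.18 for IL-17C+ uninvolved, 7.70 and 7.41 for IL-17C+ involved, 8.19 and 8.06 for IL-17C+KO uninvolved and 8.68 and 8.48 for IL-17C+KO involved pools. WT (7.39 and 8.29) and IL-6KO (7.34 and 8.07) had their 10-week pools near the IL-17C+ involved level. The interaction was 1.35 ± 0.49 (0.45 with the site labels exchanged, limma, Benjamini-Hochberg adjusted p = 0.239), and it passed with quantile normalization again (adjusted p = 0.0452) or with only the arrays of the groups compared (adjusted p = 0.0301).

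Ndufs7, the core subunit whose iron-sulphur cluster hands electrons to ubiquinone, read 8.36 and 8.19 for IL-17C+ uninvolved, 7.69 and 7.70 for IL-17C+ involved, 7.82 and 7.73 for IL-17C+KO uninvolved and 8.50 and 8.15 for IL-17C+KO involved pools. The 4 pools of IL-17C+ involved and IL-17C+KO uninvolved skin lay below the other 4 transgenic pools. Its interaction was 1.13 ± 0.40 and that of Ndufa13, an accessory subunit also known as Grim19, 1.19 ± 0.44 (limma, Benjamini-Hochberg adjusted p = 0.215 and 0.249), or 0.038 and -0.032 with the site labels exchanged. Ndufaf5, an assembly factor that modifies Ndufs7, had 0.74 ± 0.30 on a dim row, and Atp5g1 ran the other way at -1.004 ± 0.41 (adjusted p = 0.334 and 0.333). In IL-17C+KO skin alone the smallest p belonged to the accessory subunit Ndufb8, with 5.71 and 5.79 in uninvolved and 6.43 and 6.24 in involved pools, a difference of 0.59 ± 0.24 (adjusted p = 0.71).

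**Figure D4:**
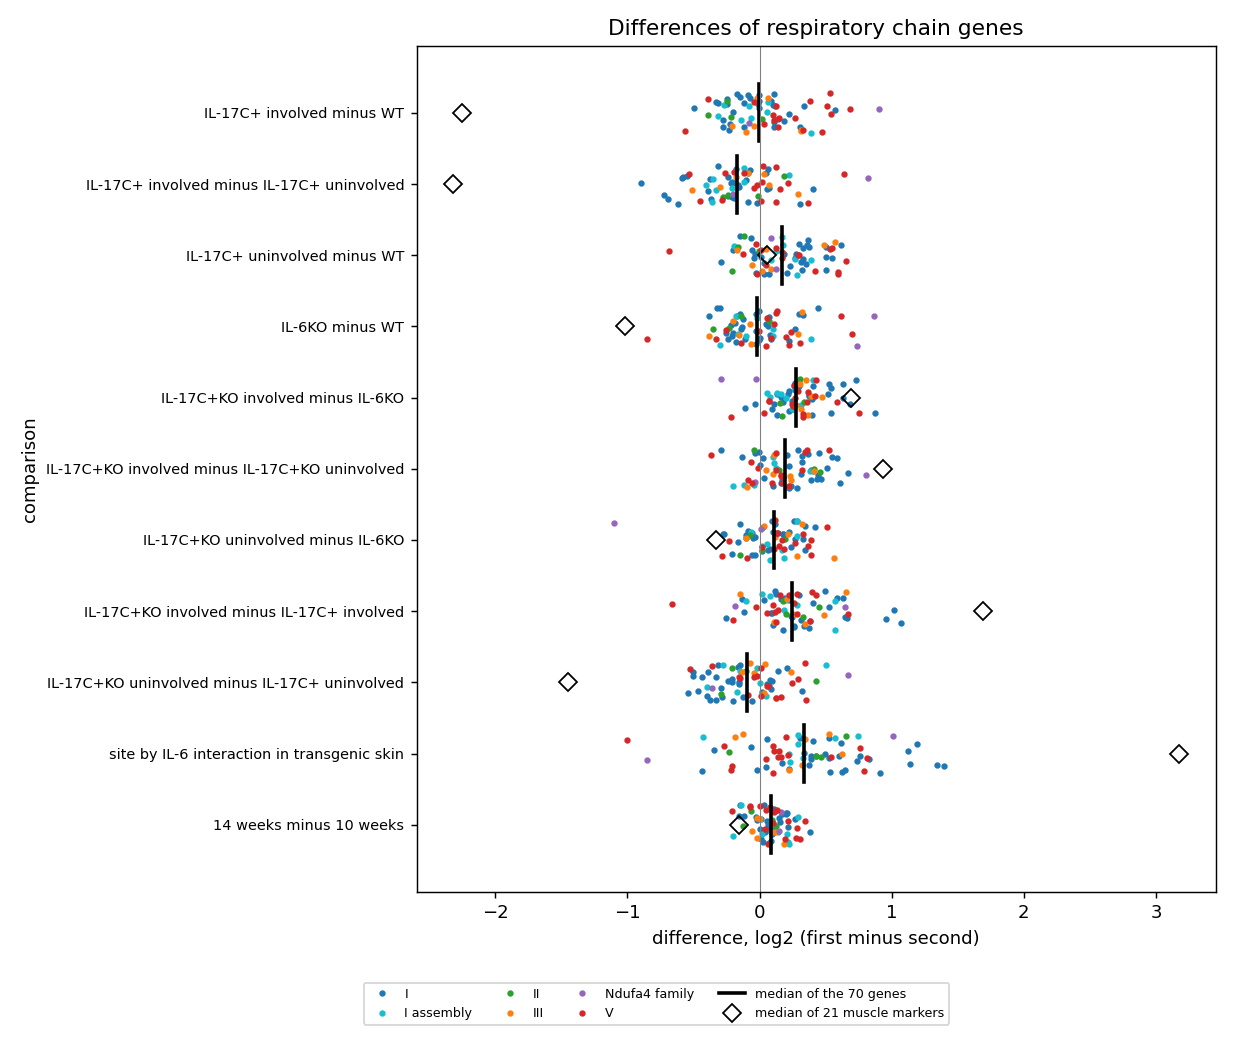
Each point is the log2 difference of 1 respiratory chain gene in 1 comparison (first minus second, coloured by complex), black bars give the median of the 70 genes and diamonds that of 21 skeletal muscle markers. The members' medians stay between -0.17 and 0.34, while the muscle medians run from -2.32 to 3.18.

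The IL-17C+KO pools labelled involved, whose inflamed-skin markers lay near those of IL-6KO skin, had the highest group mean of the chain. Their stressed epidermis mean (7.29) was below that of IL-17C+ involved skin (10.16) and above that of WT skin (5.33). The IL-17C+KO involved group had the highest of the 6 group means for 37 of 70 genes (52.9%, against 15.1% of all genes), and IL-6KO skin had it for 1 (1.43%, against 13.6%). By single array, the 14-week WT pool was highest for 16 genes and the IL-17C+KO involved pools for 14 and 10. The means over the 70 genes were 7.06 for that WT pool and 7.11 and 6.99 for the IL-17C+KO involved pools. Against involved IL-17C+ skin 61 of 70 genes were higher (median 0.24, against -0.00 over all genes), with 57 higher at each age and medians of 0.25 and 0.27. In the same comparison 5 of 8 neutrophil markers were called lower (median -3.10). With the IL-17C+KO site labels exchanged, 45 of 70 genes were higher (median 0.03), and the genes called among all genes went from 144 to 0, with 1012 at an unadjusted p under 0.05 in limma. Both pools lay above both IL-17C+ involved pools for 39 genes (55.7%, against 23.5% of all genes) and below them for 2 (2.86%, against 21.4%). Against IL-6KO skin 65 genes were higher (median 0.28, against 0.03), and 37 (52.9%, against 16.7%) lay above and 1 (1.43%, against 11.8%) below without overlap. The medians were 0.45 and 0.11 at the 2 ages. Of the 9 hair shaft markers, keratins and keratin-associated proteins of the growing hair, 7 were called lower in this comparison (median -3.18), among 38 genes called in all. With the site labels exchanged, 49 of 70 chain genes were higher than in IL-6KO skin (median 0.11), 4 of 8 neutrophil markers were called higher and none of the hair shaft markers was called. These comparisons share the IL-17C+KO involved arrays, without whose 10-week pool the medians were 0.12 and 0.17.

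By complex, the difference of involved IL-17C+KO from involved IL-17C+ skin was positive for 29 of 32 complex I subunits (median 0.26), 7 of 8 assembly factors (0.19), 4 of 4 complex II subunits (0.26), 6 of 7 complex III subunits (0.25) and 14 of 17 ATP synthase genes (0.15). Ndufa3 differed by 1.02 ± 0.34 and Ndufa6 by 0.96 ± 0.32 (limma, Benjamini-Hochberg adjusted p = 0.295 and 0.293). Ndufb9, another accessory subunit, read 8.74 and 9.24 for IL-17C+ involved and 10.19 and 9.92 for IL-17C+KO involved pools, a difference of 1.07 ± 0.46 (adjusted p = 0.485), but 8.40 and 9.80 in WT. Ndufaf5 differed by 0.57 ± 0.21 and Atp5l, the g subunit of the membrane sector, by 0.67 ± 0.29 (adjusted p = 0.387 and 0.499). Ndufa3 passed when only the 4 arrays compared were fitted (adjusted p = 0.048), a fit with fewer residual degrees of freedom than the main one. All these values rest on the site labels as given. With the labels exchanged, the IL-17C+KO means are 8.13 for Ndufa3, 7.41 for Ndufa6, 9.55 for Ndufb9, 3.67 for Ndufaf5 and 8.79 for Atp5l. IL-17C+ involved skin had means of 7.56, 7.12, 8.99, 3.49 and 8.35 for the same genes.

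Against IL-6KO skin the smallest p values of the IL-17C+KO involved pools belonged to Ndufs7 (0.73 ± 0.28), Ndufa3 (0.87 ± 0.34), Ndufb8 (0.54 ± 0.24), the accessory subunit Ndufa2 (0.54 ± 0.26) and the epsilon subunit Atp5e of the catalytic head (0.75 ± 0.37), each with a limma adjusted p of 0.999. Atp5e is uncertain, since its second row did not follow the first (Pearson r 0.02 over 12 arrays), and with the mean of both rows this difference was -0.08. IL-17C+KO uninvolved skin differed from IL-6KO skin by a median of 0.11, which was -0.007 without the 10-week IL-6KO array, with Uqcr11 of complex III at 0.57 ± 0.24 (adjusted p = 0.631). Here 15 genes (21.4%, against 17.1% of all genes) lay above and 5 (7.14%, against 17%) below without overlap.

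Between the uninvolved groups the members' median was -0.10, with 42 of 70 genes lower without IL-6. The ages differed, with 52 of 70 genes lower at 10 weeks (median -0.26) and 39 of 70 higher at 14 weeks (median 0.015). Without the 10-week IL-17C+ uninvolved array the median was 0.012, without the 14-week one -0.24, and with the site labels exchanged 0.14. As labelled, 6 of 8 neutrophil markers were called higher in IL-17C+KO uninvolved skin. Without overlap, 20 (28.6%, against 21%) lay below and 7 (10%, against 19.7%) above. Beside Ndufa4 the smallest p values were those of Ndufb8 (-0.50 ± 0.24) and of the accessory subunit Ndufb3 (-0.46 ± 0.23), with limma adjusted p of 0.675 and 0.695. IL-17C+ uninvolved skin differed from WT most in the dim row of Atp5j2, the f subunit of the membrane sector (-0.69 ± 0.29, adjusted p = 0.846), and in Atp5l (0.66 ± 0.29, adjusted p = 0.863), with 8 genes (11.4%, against 14.9%) above WT and 2 (2.86%, against 13%) below it without overlap. In IL-6KO against WT, Atp5j2 read 3.76 and 3.52 against 4.61 and 4.37, a difference of -0.85 ± 0.29 (adjusted p = 0.365). Both IL-6KO values lay below their array medians (4.19 and 3.99), on a row too dim to show a loss well. The delta subunit Atp5d of the catalytic head differed by 0.70 ± 0.31 (adjusted p = 0.567), and 3 genes (4.29%, against 11.7%) lay above and 8 (11.4%, against 14.7%) below WT without overlap. For age, with no gene called, the smallest p among the members was that of Ndufaf5 (0.29 ± 0.12, adjusted p = 0.588).

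Skeletal muscle markers, contractile and calcium-handling genes of the muscle under the dermis, moved with several of these comparisons. The mean of the 21 markers was 9.53 for WT, 8.38 for IL-6KO, 9.58 for IL-17C+ uninvolved, 7.43 for IL-17C+ involved, 8.20 for IL-17C+KO uninvolved and 9.06 for IL-17C+KO involved skin. For involved IL-17C+KO against involved IL-17C+ skin their median was 1.69 with 4 of 21 called higher, and for the interaction 3.18 with 18 called higher. With the IL-17C+KO site labels exchanged these medians were 0.78 and 1.22, with none called. None was called for IL-17C+KO involved against IL-6KO skin, with a median of 0.69. In bulk skin, fewer muscle fibres and less RNA per fibre cannot be told apart. With the muscle mean as a covariate the members' medians (over 72) were 0.70 for IL-17C+ involved against WT, 0.48 for IL-17C+ involved against uninvolved, -0.25 for the involved groups and -0.55 for the interaction. The median standard errors were 0.60, 0.61, 0.50 and 0.86, and 0 members were called. By pool the muscle mean was 9.22 and 9.84 for WT, 8.63 and 8.12 for IL-6KO and 9.77 and 9.39 for IL-17C+ uninvolved skin. It was 7.56 and 7.29 for IL-17C+ involved, 7.96 and 8.44 for IL-17C+KO uninvolved and 9.66 and 8.45 for IL-17C+KO involved skin. Other marker lists also differed in these comparisons: 8 of 8 neutrophil markers and 7 of 8 stressed epidermis markers were called lower in the interaction (medians -6.30 and -7.79). With the IL-17C+KO site labels exchanged these 2 medians were -0.39 and -2.34, with none called. In that fit 2 neutrophil and 4 stressed epidermis markers had an unadjusted limma p under 0.05. The hair shaft list had means of 5.04 for WT, 8.43 for IL-6KO, 8.30 for IL-17C+ uninvolved, 7.11 for IL-17C+ involved, 7.496 for IL-17C+KO uninvolved and 5.06 for IL-17C+KO involved skin. Its markers were called higher for 8 of 9 in IL-6KO, 4 of 9 in IL-17C+ uninvolved and 3 of 9 in IL-17C+ involved skin, each against WT. Of the 6 fibroblast markers 3 were called lower in IL-6KO skin against WT (median -1.55), among them the collagen Col1a1, which fell by 2.21 (limma, Benjamini-Hochberg adjusted p = 0.00904). The part of any of these cells in the members' values was not tested further.

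Complex IV, which the prefixes leave out, has subunits with a form for striated muscle and a form for most tissues. Cox8b, a muscle form, read 5.64 and 8.13 for WT, 6.33 and 5.98 for IL-6KO, 7.86 and 7.55 for IL-17C+ uninvolved, 5.35 and 5.13 for IL-17C+ involved, 5.92 and 6.19 for IL-17C+KO uninvolved and 8.35 and 6.47 for IL-17C+KO involved pools. The IL-17C+ involved pools were the lowest. Cox6a1, a form of most tissues, read 8.74 and 9.85 for WT, 9.55 and 10.58 for IL-6KO, 9.61 and 9.60 for IL-17C+ uninvolved, 10.05 and 10.30 for IL-17C+ involved, 10.13 and 9.91 for IL-17C+KO uninvolved and 9.98 and 10.30 for IL-17C+KO involved pools. It was lowest in the 10-week WT pool, as most members were. From WT to IL-17C+ involved skin the 3 muscle forms Cox6a2, Cox7a1 and Cox8b differed by -1.58 ± 0.47, -1.57 ± 0.52 and -1.65 ± 0.66 (limma, Benjamini-Hochberg adjusted p = 0.142, 0.203 and 0.331). The 10 measured forms of most tissues had a median of 0.23, with 9 higher and none called.

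The ADP/ATP carriers ran apart between IL-17C+ involved skin and WT. Slc25a4 of heart and muscle differed by -1.19 ± 0.36 and Slc25a5 of most tissues by 0.96 ± 0.33 (limma, Benjamini-Hochberg adjusted p = 0.136 and 0.229).

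**Figure D5:**
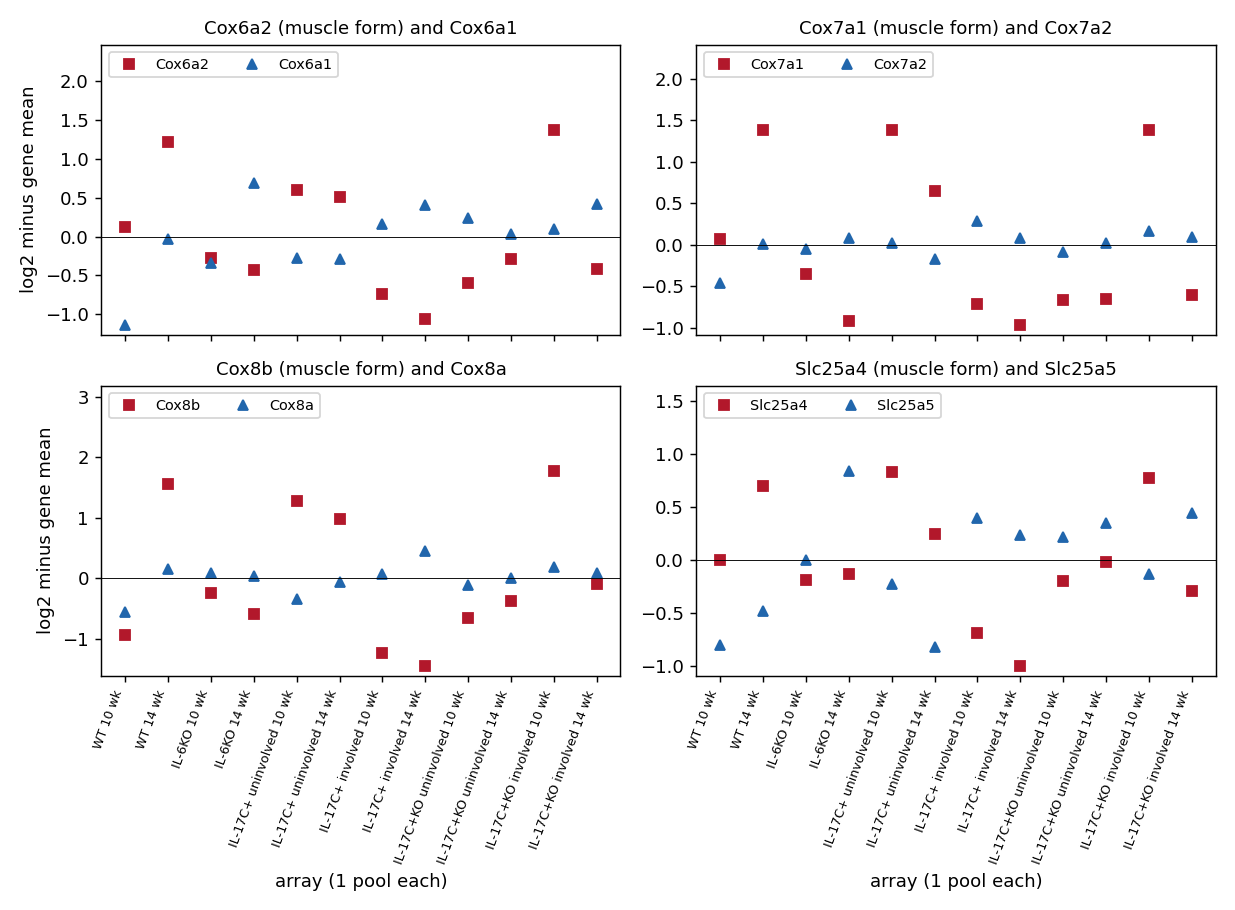
Log2 intensity minus the gene's mean on each of the 12 arrays for 3 pairs of complex IV forms and for the ADP/ATP carriers (red squares the muscle form, blue triangles the form of most tissues). Each muscle form is lowest in the 14-week IL-17C+ involved pool and high in WT at 14 weeks, IL-17C+ uninvolved skin and IL-17C+KO involved skin at 10 weeks.

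Other mitochondrial genes were counted from lists of textbook members, under the labels as given. In the interaction, 12 of 13 measured genes of the tricarboxylic acid cycle were positive (median 0.53, none called), as were 11 of 12 of fatty acid oxidation (median 0.25, none called) and 8 of 8 of pyruvate entry (median 0.51). Of the last, Pdk4, the kinase that shuts pyruvate dehydrogenase off, was called at 2.46 ± 0.55 (limma, Benjamini-Hochberg adjusted p = 0.0346), but had 0.57 ± 0.55 with the IL-17C+KO site labels exchanged (adjusted p = 0.967). The 11 regulators of mitochondrial biogenesis had 8 positive and a median of 0.11, none called, with Ppargc1a, a coactivator of oxidative genes, at 1.52 ± 0.41 (adjusted p = 0.0822). Electron carriers with Cyc1 were split 3 to 2 (median 0.01), and outer membrane import genes 3 to 3 (median 0.06).

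Glycolysis genes, which make pyruvate in the cytosol, were divided among themselves. In IL-17C+ involved skin against WT, 3 of 14 measured genes were called lower: the muscle enolase Eno3 fell by 2.24 on the log2 scale, the muscle mutase Pgam2 fell by 1.92 and the muscle phosphofructokinase Pfkm fell by 2.30 (limma, Benjamini-Hochberg adjusted p = 0.0284, 0.0312 and 0.0348). The liver-type phosphofructokinase Pfkl differed by 0.86 ± 0.24 without passing against WT (adjusted p = 0.112), and rose by 1.07 ± 0.24 against IL-17C+ uninvolved skin (adjusted p = 0.0493). The list's median in the first comparison was 0.24, with 9 of 14 genes higher, so its sign is opposite to that of the called genes.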

How the data were processed

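The table holds linear intensity values that the authors deposited after RMA in Affymetrix Expression Console, per the submitters' processing notes; versions and the probe build are not stated in the sources used here. Log2 was taken, since the planned log2 unit did not match these values (2.5 to 18385). Of 41345 rows, 23521 name 1 gene, and the row of highest mean was kept for each of 22180 genes. limma 3.58.1 in R 4.3.3 (lmFit, eBayes with a trend) fitted group and age over 12 arrays, with 5 residual and 7.65 prior degrees of freedom, and p-values were adjusted by Benjamini-Hochberg. The number of arrays, 2 per group, limits the precision. On simulated data for IL-17C+ involved against WT, 28 of 100 genes changed by 1 log2 unit and 88 of 100 changed by 2 were called. The members and lists were chosen with earlier results of these data known. Named members are those with the smallest p per comparison, the ones with the widest or narrowest spread of group means, the c-ring genes and the Ndufa4 pair; Cox and carrier genes shown by array, Pdk4, Ppargc1a, Pfkl and Uqcrb were chosen after their values were seen. Alternatives were other normalization, filters, rows, covariates, array subsets, arrays left out 1 at a time and, chosen after the data were seen, exchanged site labels of the IL-17C+KO pools. The 2 ages serve as replicates and as a term of the fit. RefSeq matched 72 of 72 member symbols. Rows naming several genes and genes encoded by mitochondrial DNA were left out.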

Additional observations from a re-analysis of the deposited data

Results flagged for a closer look

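Under the site labels as given, the limma interaction term called 18 of 21 skeletal muscle markers higher, so that involved and uninvolved skin differed in unlike ways with and without IL-6. Neutrophil and stressed epidermis markers ran against the site labels of the IL-17C+KO pools, and with these labels exchanged 0 of the 21 were called (median 1.22, 9 at an unadjusted p under 0.05). The interaction term also called Pdk4, at 2.46 ± 0.55, and not with the labels exchanged (0.57 ± 0.55).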

How the results depend on the processing

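The number of members called was 0 in all 11 comparisons and in 222 of 226 alternatives, including without any 1 array (lowest 0, highest 0), with no replicate block (0 in 10 comparisons), with a replicate block of genotype and age in the 8 transgenic arrays (0 in both site comparisons), without the trend, with a 1.5-fold minimum and with the muscle covariate. It became 1 for the interaction with quantile normalization again. With only the arrays of the groups compared it was 1 for IL-17C+KO uninvolved against IL-6KO and 1 between the involved groups. It was 2 for the interaction (Ndufa3 and Ndufa6, the latter with a limma adjusted p of 0.0479). Fits on the compared arrays alone have fewer residual degrees of freedom than the main fit and lean more on the prior. The cause of these calls was not tested. Of 1124 alternatives for 55 single-gene results, 1100 kept direction and side of the threshold. With the muscle covariate these reversed: against IL-17C+ uninvolved skin, IL-17C+ involved skin had Ndufa6 at 0.77, Ndufs7 at 0.18 and Atp5g1 at -0.051; between involved groups Ndufa6 was -0.17 and Atp5l -0.053; in the interaction Ndufa6 was -0.69 and Ndufa13 -0.68. The mean of all rows gave Atp5e -0.078 for IL-17C+KO involved against IL-6KO, where its rows disagree. Without the 14-week IL-17C+KO involved array (replicate 2) Ndufa4l2 was -0.031 for IL-17C+KO involved against uninvolved, the lowest of the values with 1 array left out, whose highest was 1.64. With the IL-17C+KO site labels exchanged (chosen after the data were seen) the members called stayed 0 in the 6 comparisons it touches. It reversed, for IL-17C+KO involved against uninvolved, Ndufb8 (-0.586), Ndufa4l2 (-0.805), Ndufa6 (-0.672), Ndufa13 (-0.612) and Ndufb3 (-0.445), and elsewhere Ndufb8 (-0.047 for involved against IL-6KO, 0.086 between uninvolved groups), Ndufs7 (0.047 between uninvolved groups), Ndufs5 (0.113 for uninvolved against IL-6KO) and Ndufa13 (-0.032 in the interaction). Age, the only number the groups share, is a term in every fit except the one with no block.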

Other observations

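Rows that name several genes were fitted apart from the members, with 17824 other rows. None passed. The smallest p was that of a row naming Ndufs6 and Ndufs6b, a subunit of the complex I matrix arm and its copy. It differed by 0.95 ± 0.31 between involved IL-17C+KO and involved IL-17C+ skin (limma, Benjamini-Hochberg adjusted p = 0.691). A second row with the same names differed by 0.31 ± 0.27 there (adjusted p = 0.941).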
